A study of Mus musculus with 31 samples.

Results

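Rab proteins are small GTPases that mark the membranes of a cell and steer vesicles between them. In their GTP-bound state they recruit effectors that move, tether and fuse vesicles, exchange factors (GEFs) load them with GTP, GTPase-activating proteins (GAPs) switch them off, and GDP dissociation inhibitors (GDIs) carry the inactive, prenylated proteins between membranes. In neurons they act in the release of synaptic vesicles, the recycling of receptors to dendrites, the traffic of endosomes along axons and the delivery of cargo to lysosomes.

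The family was taken as every probe set on the array whose annotated symbol is Rab followed by a number and any further letters, without symbols of Rab effectors. The rule found 143 probe sets of 63 symbols among 45037 mouse probe sets, and it used no measured value. Of the 63 symbols 59 are Rab GTPases, with 132 probe sets. The other 4 are no GTPases: Rab3il1 and Rab3ip encode exchange factors, and Rab10os and Rab26os are opposite-strand transcripts. They were kept out of the counts below. Probe sets had to lie above the array's median signal in 3 or more mice to enter the test, and 51 of the 59 GTPases, with 110 probe sets, did. Rab17, Rab19, Rab20, Rab25, Rab37, Rab39, Rab42 and Rab44 did not reach that level with any probe set, and the probe sets that show them had log2 signals between 0.70 and 7.20 over all mice. A gene is shown by its tested probe set with the highest mean, as was done for all 12844 genes of the array that could be tested.

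Hippocampal RNA was measured on 31 arrays, each from 1 male C57BL/6 mouse. Glud1 transgenic mice (Tg) over-express glutamate dehydrogenase 1, a mitochondrial enzyme of glutamate metabolism, in neurons of the central nervous system, and wild-type mice (wt) of the same background served as controls; the promoter of the transgene is not given in the sources used here. There were 3 Tg and 3 wt mice at 4.5, 9, 14.5 and 20 months, and 3 Tg and 4 wt mice at 10 days. The study followed the hippocampus through development and aging and asked where the genotypes part.

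Values are log2 of the signal after quantile normalization, changes are log2 fold changes ± their standard error from a linear model in limma, and adjusted p-values cover all probe sets tested. Median signals of the deposited arrays ran from 91.4 to 140. All 7 markers of hippocampal pyramidal and granule cells were tested, and arrays of the same group correlated at 0.934 or more. The Glud1 probe sets read a part of the transcript that the transgene lacks and do not check the genotype labels. The ages differ in array quality. The Gapdh ratio of 3′ over 5′ signal (log2) was -0.08 to 0.02 at 4.5 months and -0.46 to -0.14 on the other arrays, the actin ratio was 0.71 to 0.96 at 9 months and at most 0.55 elsewhere, and the highest signal of an array was 22626 to 26606 at 14.5 months and at least 31049 elsewhere. Each age therefore cannot be told apart from the processing of its arrays. Summed signals of cell type markers moved with age too: 9 oligodendrocyte markers gave 53661 to 72331 at 4.5 months, against 6718 to 12964 at 10 days, and 7 markers of immature and dividing cells gave 3793 to 4439 at 4.5 months, against 19019 to 22354 at 10 days. In bulk tissue fewer cells of a type and less RNA in each cell cannot be told apart.

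Between 10 days and 4.5 months the Rab family split. At 4.5 months 17 of 51 genes were higher than at 10 days (33.3%, against 31.2% of all genes tested) and 18 were lower (35.3%, against 35.5% of all genes). These shares lie near those of all genes. The median change was 0.00 over the Rab genes and -0.04 over all genes, and 1 Rab gene changed at least 2-fold, against 14% of all genes. In the Tg mice alone 29 Rab genes passed the test, in the wt mice alone 29, and 24 passed in both with the same sign. None of the 51 passed in both genotypes with opposite signs. The test of 20 months against 4.5 months uses the same 4.5-month arrays. There 12 Rab genes were higher (23.5%, against 22.4% of all genes) and 11 lower (21.6%, against 19.9%), with a median change of 0.03 over the Rab genes and 0.03 over all genes. It passed for 15 Rab genes in Tg mice alone and for 17 in wt mice alone, and 13 of these were shared and had the same sign. For both comparisons the counts in Tg alone, in wt alone and in both were not made over all genes. They only describe the Rab genes.

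**Figure D1:**
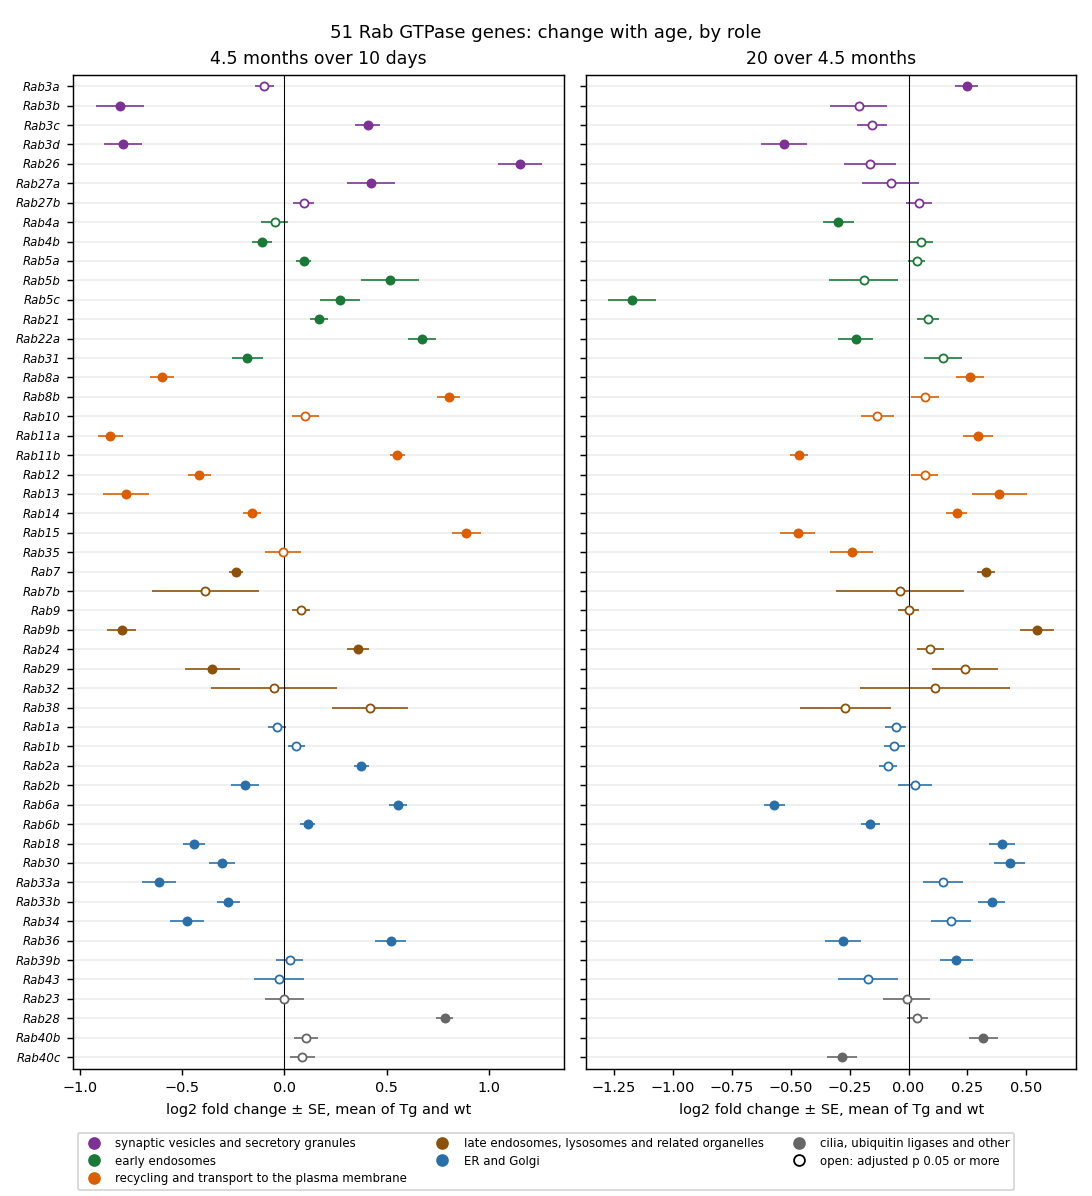
Log2 fold change with its standard error (x axis) of the 51 Rab GTPase genes (rows, coloured by role) at 4.5 months over 10 days on the left and at 20 over 4.5 months on the right, as the mean of Tg and wt; open symbols did not pass an adjusted p of 0.05. Changes lie on both sides of 0 in nearly every role, from Rab26 at 1.15 to Rab11a at -0.85 on the left, and from Rab9b at 0.54 to Rab5c at -1.17 on the right.

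The 51 genes hold 20 pairs that share a number, such as Rab11a and Rab11b, and 5 of these pairs were called in opposite directions at 4.5 months over 10 days. In 3 of the 5 a member (Rab11b or Rab3c) has probe sets that were themselves called in opposite directions. In 6 pairs both genes changed the same way. At 20 over 4.5 months 3 pairs were opposite and 1 pair moved together. The opposite pairs were Rab11a and Rab11b, Rab3a and Rab3d, and Rab40b and Rab40c. Of these, Rab3a has probe sets called in opposite directions, and Rab11b did not pass with the median over probe sets. In the pair that moved together, Rab6a has opposed probe sets, and Rab6b did not pass without quantile normalization (adjusted p = 0.310). Where 33.3% of the genes rise and 35.3% fall, pairs of both kinds can arise from these shares alone, so the counts only describe the pairs. Rab11a and Rab11b both serve recycling endosomes, which return receptors to the cell surface. Over the mice of an age, Tg and wt together (7 at 10 days, 6 at each other age), Rab11a had a lowest, median and highest log2 signal of 11.29, 11.34 and 11.38 at 4.5 months, against 11.90, 12.24 and 12.48 at 10 days. All 4.5-month mice lay below all 10-day mice, and the change was -0.85 ± 0.061 (adjusted p = 4.89e-13), with -0.81 in Tg and -0.90 in wt mice. Rab11b went the other way, with 12.38, 12.41 and 12.49 at 4.5 months, against 11.79, 11.84 and 11.99 at 10 days. Here all 4.5-month mice lay above all 10-day mice, and the change was 0.55 ± 0.036 (adjusted p = 6.66e-14), with 0.53 in Tg and 0.57 in wt mice. At 20 over 4.5 months Rab11a rose by 0.30 ± 0.063 (adjusted p = 0.000400) and Rab11b fell by 0.46 ± 0.038 (adjusted p = 3.42e-11). Rab11b rests on its brightest probe set: of its other tested probe sets, 1 gave 0.08 ± 0.149 and 1 gave -0.72 ± 0.173 at 4.5 months over 10 days, and with the median over probe sets its changes were 0.08 (adjusted p = 0.655) and -0.21 (adjusted p = 0.270). The second tested probe set of Rab11a gave -0.90 and 0.26, near the first.

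Rab8a and Rab8b, which act in transport to the plasma membrane and the cilium, showed a like split. Rab8a had a lowest, median and highest value of 9.54, 9.68 and 9.85 at 4.5 months, against 10.22, 10.29 and 10.38 at 10 days (change -0.60 ± 0.057, adjusted p = 1.97e-10). Rab8b had 11.54, 11.61 and 11.66 at 4.5 months, against 10.49, 10.85 and 10.94 at 10 days (change 0.80 ± 0.056, adjusted p = 2.45e-13). For neither gene did the mice of the 2 ages overlap, and the changes were -0.59 in Tg and -0.61 in wt mice for Rab8a and 0.85 in Tg and 0.75 in wt mice for Rab8b. With the median over probe sets Rab8a did not pass (-0.16, adjusted p = 0.0821). Its medians at 9, 14.5 and 20 months (10.12, 10.01 and 9.95) lay between those of the first pair of ages, and its change at 20 over 4.5 months was 0.26 ± 0.059 with the probe set shown and -0.02 with the median over probe sets. Rab8b stayed above its 10-day level, with medians of 11.41 at 9 months, 11.57 at 14.5 months and 11.69 at 20 months. It was called lower at 9 over 4.5 months and higher at 14.5 over 9 months. All 9-month mice (11.23 to 11.51) lay below all 4.5-month mice.

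RefSeq promoter windows (GRCm38.p6, 250 bases before to 50 after the start of a gene) are printed for these 4 genes, to show the start regions of paralogs that changed in opposite directions. Capitals mark the GC box GGGCGG and the CCAAT box CCAAT on either strand. The windows are chr9:64737707-64738006 (minus strand) for Rab11a, chr17:33760437-33760736 (minus strand) for Rab11b, chr8:72160950-72161249 (plus strand) for Rab8a and chr9:66919656-66919955 (minus strand) for Rab8b.
Rab11a: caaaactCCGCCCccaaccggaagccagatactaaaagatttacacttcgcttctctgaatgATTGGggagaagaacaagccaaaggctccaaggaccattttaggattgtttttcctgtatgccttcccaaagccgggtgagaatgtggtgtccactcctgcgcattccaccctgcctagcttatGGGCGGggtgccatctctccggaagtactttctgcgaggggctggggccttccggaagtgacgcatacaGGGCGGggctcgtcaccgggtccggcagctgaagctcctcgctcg
Rab11b: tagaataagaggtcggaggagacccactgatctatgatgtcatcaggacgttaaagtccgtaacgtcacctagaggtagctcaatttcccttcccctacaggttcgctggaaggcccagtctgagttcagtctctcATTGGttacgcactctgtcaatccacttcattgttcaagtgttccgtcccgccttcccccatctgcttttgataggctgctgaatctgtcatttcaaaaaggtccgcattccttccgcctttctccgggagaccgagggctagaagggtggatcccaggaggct
Rab8a: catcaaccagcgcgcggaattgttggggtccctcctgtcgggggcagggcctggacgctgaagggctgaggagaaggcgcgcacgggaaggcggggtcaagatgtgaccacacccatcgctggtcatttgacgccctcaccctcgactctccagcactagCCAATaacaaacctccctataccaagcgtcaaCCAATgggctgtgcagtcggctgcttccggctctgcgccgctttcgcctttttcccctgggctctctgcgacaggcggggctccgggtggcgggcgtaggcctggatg
Rab8b: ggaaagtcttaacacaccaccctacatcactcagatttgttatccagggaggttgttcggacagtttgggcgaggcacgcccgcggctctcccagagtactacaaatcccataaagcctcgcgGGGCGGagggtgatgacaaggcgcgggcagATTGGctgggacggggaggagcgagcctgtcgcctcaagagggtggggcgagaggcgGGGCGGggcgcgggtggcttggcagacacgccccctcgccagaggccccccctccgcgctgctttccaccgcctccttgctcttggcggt
Rab11a, which fell at 4.5 months, has 3 GC boxes and Rab8b, which rose, has 2, while Rab11b and Rab8a have 0. Each window has a CCAAT box, and that of Rab8a has 2. GC content was 56.3% for Rab11a, 51.3% for Rab11b, 64.0% for Rab8a and 65.3% for Rab8b. Neither motif sorts these 4 genes by direction. Of the 48 Rab GTPases with a RefSeq window 36 hold a GC box (75.0%, against 38.2% of all 27025 genes of the table) and 26 a CCAAT box (54.2%, against 41.1%). Of these 48 Rab genes 42 were tested, while the table also holds genes that were not. The shares therefore do not compare like sets of genes.

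**Figure D2:**
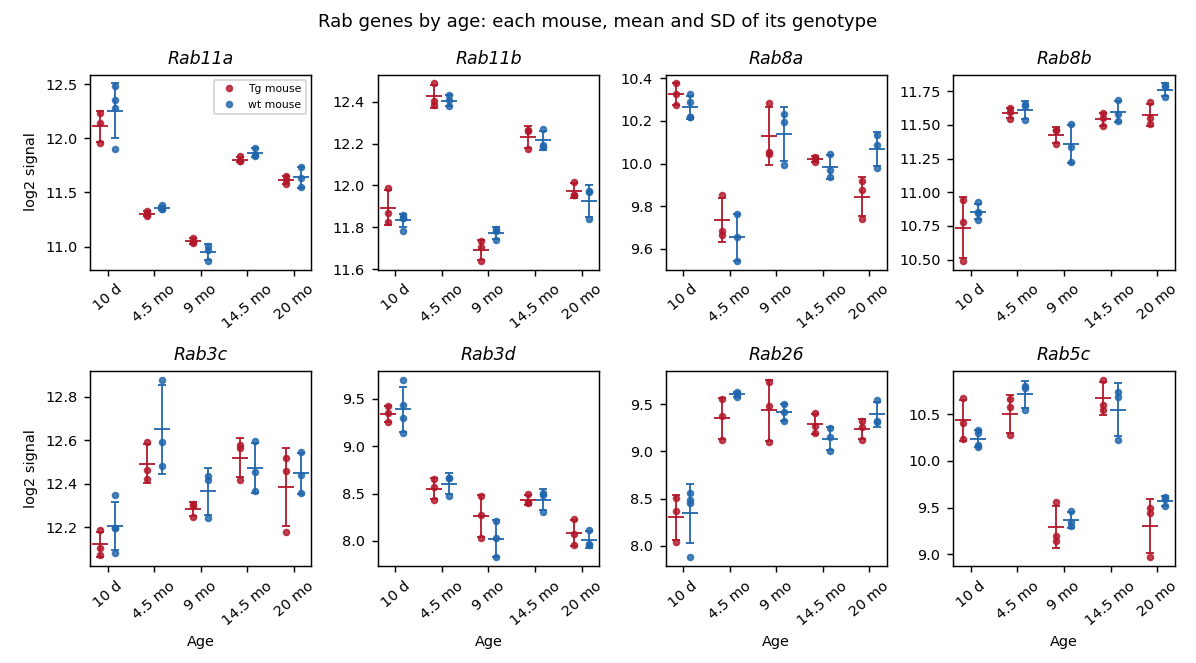
Log2 signal (y axis) of 8 Rab genes in each mouse at the 5 ages (x axis), with Tg mice in red left of wt mice in blue; horizontal ticks and bars are the mean and SD of 3 mice (4 wt mice at 10 days). Rab11a and Rab8a are lower and Rab11b and Rab8b higher at 4.5 months than at 10 days in every mouse, and Rab5c is low at 9 and 20 months, with at most 9.61, while no mouse of another age lies under 10.15.

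The counts by role below rest on 4 to 14 genes each and only describe the role. They stand beside 31.2% of all genes that rose and 35.5% that fell at 4.5 months over 10 days, and 22.4% and 19.9% at 20 over 4.5 months. Among the Rabs of synaptic vesicles and secretory granules, 3 of 7 tested genes rose and 2 fell at 4.5 months over 10 days. Rab26, which binds synaptic vesicles and leads them to autophagy, had the largest rise of all Rab genes tested. It had a lowest, median and highest value of 9.12, 9.56 and 9.63 at 4.5 months, against 7.88, 8.46 and 8.56 at 10 days (change 1.15 ± 0.107, adjusted p = 1.19e-10). The rise was 1.04 in Tg and 1.26 in wt mice, and the gene kept this level later, with medians from 9.22 to 9.45 at 9, 14.5 and 20 months. Rab27a, a secretory granule Rab, rose by 0.42 ± 0.116. The 4 Rab3 genes, which prime synaptic vesicles for release, did not move as a unit. Rab3b (-0.81 ± 0.117) and Rab3d (-0.79 ± 0.093) fell. Rab3c rose by 0.41 ± 0.062, while its other 3 tested probe sets fell (-0.36 to -0.62) and the median over probe sets gave -0.37. Rab3a, the most studied of them, did not pass (-0.10 ± 0.047, adjusted p = 0.0653), its second probe set rose by 0.60 ± 0.052, and the median over both gave 0.25 (adjusted p = 2.27e-06). Rab27b did not pass either (0.09 ± 0.052, adjusted p = 0.122), while a second probe set fell by 0.48 ± 0.122 and the median over 4 probe sets gave -0.40 (adjusted p = 0.000913).

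Later in life Rab3d fell further. Its lowest, median and highest values were 7.96, 8.02 and 8.23 at 20 months, against 8.43, 8.61 and 8.67 at 4.5 months (change -0.53 ± 0.097, adjusted p = 5.75e-05), with no overlap. Its mean over the 5 ages spanned 1.32, the widest range of the 51 genes. Rab3a rose at 20 over 4.5 months by 0.25 ± 0.048, but its second probe set fell by 0.42, so the direction depends on the probe set, and with the median over probe sets it gave -0.09 (adjusted p = 0.0817). Rab3b gave -0.21 ± 0.121, Rab3c -0.15 ± 0.064, Rab26 -0.16 ± 0.110, Rab27a -0.08 ± 0.120 and Rab27b 0.04 ± 0.054, none of which passed.

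Of the early endosome Rabs, 5 of 8 tested genes rose at 4.5 months over 10 days and 2 fell (of all genes 31.2% rose and 35.5% fell). Rab22a, which sorts cargo at early endosomes, had 9.86, 10.01 and 10.20 at 4.5 months, against 9.11, 9.34 and 9.53 at 10 days (change 0.67 ± 0.070, adjusted p = 1.51e-09). The 3 Rab5 genes, whose products drive the fusion of early endosomes, rose by 0.09 ± 0.036 for Rab5a, 0.52 ± 0.142 for Rab5b and 0.27 ± 0.098 for Rab5c, though Rab5a gave -0.05 without quantile normalization. Rab21 rose by 0.17 ± 0.045. The Rab4 genes serve fast recycling: Rab4b fell by 0.11 ± 0.049 (adjusted p = 0.0487), a call that was lost in 22 of 31 fits without 1 mouse, and Rab4a gave -0.05 ± 0.065. Rab31, which acts between the Golgi and endosomes, fell by 0.18 ± 0.077. At 20 over 4.5 months no gene of this role rose and 3 fell: Rab5c, Rab4a (-0.30 ± 0.067, adjusted p = 0.000643) and Rab22a (-0.22 ± 0.073).

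Rab5c had the largest change of all 51 genes between adult ages. Its mice ranged from 10.15 to 10.67 at 10 days, from 10.28 to 10.81 at 4.5 months, from 9.14 to 9.55 at 9 months, from 10.22 to 10.87 at 14.5 months and from 8.97 to 9.61 at 20 months. The values form an upper level at 10 days, 4.5 and 14.5 months and a lower level at 9 and 20 months, with a gap between them that no mouse fills, and Tg and wt mice share it (at 20 over 4.5 months -1.20 in Tg and -1.14 in wt mice). The steps were -1.28 ± 0.102 at 9 over 4.5 months, 1.28 ± 0.102 at 14.5 over 9 months and -1.17 ± 0.102 at 20 over 14.5 months. The actin 3′ over 5′ ratio split the ages the same way: it was 0.71 to 0.96 at 9 months and 0.51 to 0.55 at 20 months, against at most 0.46 at 10 days, 4.5 and 14.5 months. Its part in the result was not tested. Rab5c is read by a single probe set. Rab5b had another course, with medians of 7.47 at 10 days, 7.96 at 4.5 months, 8.65 at 9 months, 8.59 at 14.5 months and 7.85 at 20 months.

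The recycling and plasma membrane Rabs gave 3 rises and 5 falls among 10 tested genes at 4.5 months over 10 days. Besides Rab8b and Rab11b, Rab15, an endosomal Rab that is abundant in brain, rose, with 11.86, 12.05 and 12.18 at 4.5 months, against 11.02, 11.14 and 11.45 at 10 days (change 0.89 ± 0.070, adjusted p = 3.73e-12). Rab13, which serves cell junctions and neurite outgrowth, fell by 0.78 ± 0.114. Rab12, which acts in the degradation of the transferrin receptor (-0.42 ± 0.056), and Rab14, a Rab of the Golgi and endosomes (-0.16 ± 0.044), fell with the probe set shown, but with the median over probe sets they gave 0.58 (adjusted p = 0.0525) and 0.63 (adjusted p = 1.26e-13). Rab10, which acts in exocytosis and axon growth, gave 0.10 ± 0.067, and Rab35, an endocytic recycling Rab, gave -0.01 ± 0.088. With the median over probe sets Rab10 rose by 0.22 (adjusted p = 0.00166). At 20 over 4.5 months 4 rose and 3 fell. Rab15 fell by 0.47 ± 0.072 to 11.40, 11.56 and 11.81 at 20 months, and no 20-month mouse reached a 4.5-month mouse. Rab13 rose by 0.39 ± 0.118 with overlapping mice, and Rab35 fell by 0.24 ± 0.091.

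Late endosomal and lysosomal Rabs gave 1 rise and 3 falls among 8 tested genes at 4.5 months over 10 days, and 2 rises and no fall at 20 over 4.5 months. Rab7, the main Rab of late endosomes and lysosomes, had 12.39, 12.47 and 12.54 at 4.5 months, against 12.65, 12.68 and 12.79 at 10 days (change -0.24 ± 0.035, adjusted p = 9.78e-07). Its values at 20 months were 12.74, 12.78 and 12.90, and the change from 4.5 months was 0.33 ± 0.037 (adjusted p = 1.84e-08). Its second probe set gave -0.64 and 0.55. Rab9b had 9.11, 9.42 and 9.65 at 4.5 months, against 10.00, 10.22 and 10.25 at 10 days (change -0.80 ± 0.071, adjusted p = 5.00e-11). It had 9.72, 9.95 and 10.05 at 20 months, the largest rise of all Rab genes at 20 over 4.5 months (0.54 ± 0.073, adjusted p = 5.43e-07). For Rab7 and Rab9b the 4.5-month mice lay below the mice of both other ages, and these comparisons share the 4.5-month arrays. Rab24, a Rab linked to autophagy, rose by 0.36 ± 0.054 at 4.5 months over 10 days, while its second probe set fell by 0.22 ± 0.057. Rab29, a Rab of the Golgi and lysosomes, fell by 0.35 ± 0.134. Rab32 and Rab38, known for the making of melanosomes, gave -0.05 ± 0.308 and 0.42 ± 0.187, Rab7b gave -0.39 ± 0.263 and Rab9 0.08 ± 0.044, none past the test.

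Rabs of the endoplasmic reticulum and Golgi were the largest role, with 4 rises and 6 falls among 14 tested genes at 4.5 months over 10 days and 4 rises and 3 falls at 20 over 4.5 months. Rab6a, which drives traffic at the Golgi, had 13.69, 13.90 and 13.98 at 4.5 months, against 13.24, 13.31 and 13.40 at 10 days (change 0.56 ± 0.044, adjusted p = 3.34e-12). At 20 months it had 13.20, 13.33 and 13.43 (change from 4.5 months -0.57 ± 0.045, adjusted p = 2.16e-11). The 20-month and 10-day mice thus overlapped, and both lay below the 4.5-month mice. A second probe set of Rab6a rose at 20 over 4.5 months (0.31 ± 0.083). Its brain-enriched relative Rab6b rose by 0.11 ± 0.038 and fell by 0.16 ± 0.040 in these comparisons, and its rise became a fall of 0.12 without quantile normalization. Rab2a rose by 0.38 ± 0.037 and Rab2b fell by 0.19 ± 0.069 at 4.5 months over 10 days. Rab1a, the Rab of transport from the endoplasmic reticulum to the Golgi, gave -0.04 ± 0.045 and -0.06 ± 0.046, although its second probe set gave -0.73 and 0.45, both past the test, as did the median over both (-0.38 and 0.20).

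Rab33a, a Rab of axonal vesicles, had the largest fall of this role at 4.5 months over 10 days (-0.61 ± 0.081, adjusted p = 1.24e-07), with no overlap of mice. Rab18, Rab30 and Rab33b, which act at the endoplasmic reticulum, lipid droplets and Golgi, fell by 0.44 ± 0.054, 0.31 ± 0.064 and 0.27 ± 0.056 at 4.5 months over 10 days. They rose by 0.40 ± 0.056 for Rab18, 0.43 ± 0.067 for Rab30 and 0.35 ± 0.058 for Rab33b at 20 over 4.5 months. With the median over probe sets this rise of Rab30 was 0.13 and did not pass (adjusted p = 0.278). The 4.5-month arrays are shared by these comparisons. Rab34 fell by 0.48 ± 0.083 and Rab36 rose by 0.52 ± 0.075 at 4.5 months over 10 days, and Rab36 fell by 0.28 ± 0.077 at 20 over 4.5 months. Rab1b (0.06 ± 0.043 and -0.06 ± 0.044) and Rab43 (-0.03 ± 0.122 and -0.17 ± 0.126) did not pass in either comparison. Rab39b, a neuronal Rab whose loss causes intellectual disability in humans, gave 0.02 ± 0.067 and rose by 0.20 ± 0.069 at 20 over 4.5 months, a call that was lost in 2 of 31 fits without 1 mouse. That call was also lost with the median over probe sets (0.14, adjusted p = 0.147). In the remaining role Rab28, which acts in cilia, was the only gene of 4 tested to pass at 4.5 months over 10 days. It had 11.17, 11.28 and 11.29 at 4.5 months, against 10.34, 10.53 and 10.58 at 10 days (change 0.78 ± 0.043, adjusted p = 1.15e-15). With the probe set shown it stayed between 11.14 and 11.41 in every older mouse. With the median over probe sets Rab28 rose by 0.24 at 20 over 4.5 months (adjusted p = 0.00105). Rab23, a Rab of Hedgehog signalling, gave 0.00 ± 0.096 and -0.01 ± 0.099, but another probe set gave -0.81 ± 0.166 and 0.97 ± 0.171, both past the test. Rab40b and Rab40c, whose products recruit ubiquitin ligases, gave 0.10 ± 0.060 and 0.09 ± 0.061, and at 20 over 4.5 months Rab40b rose by 0.32 ± 0.061 and Rab40c fell by 0.28 ± 0.063.

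**Figure D3:**
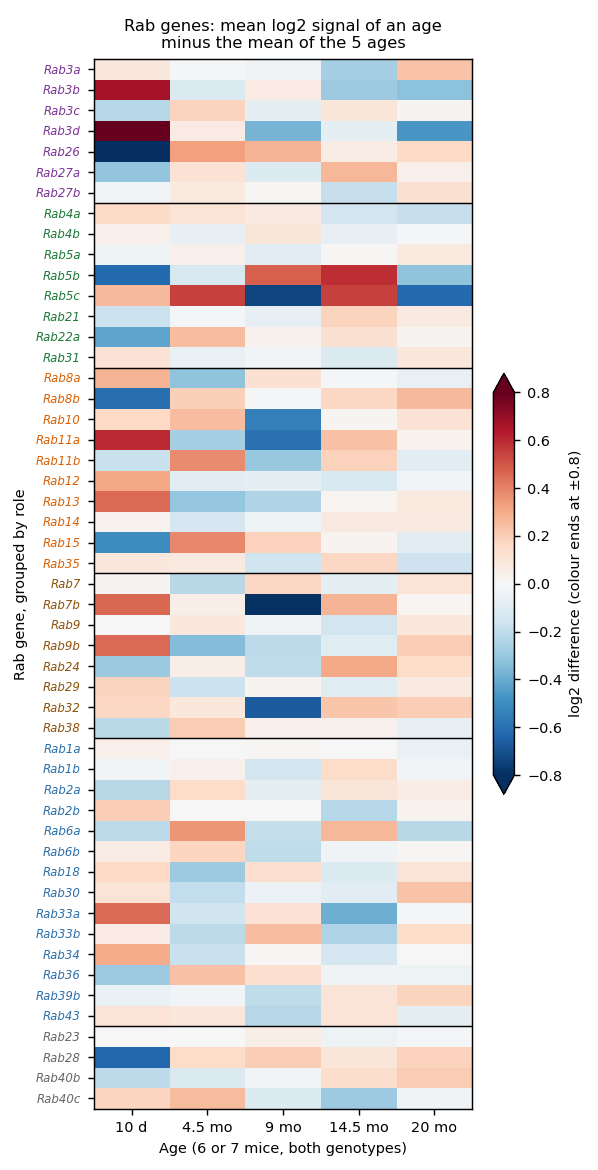
Mean log2 signal of each age minus the mean of the 5 ages (colour) for the 51 Rab genes (rows, grouped by role in the order of the plot of changes) over 5 ages (columns, 6 or 7 mice each). Rab5c, Rab10, Rab11a and Rab7b are low at 9 months and Rab33b and Rab7 high there, while Rab26, Rab28 and Rab8b are lowest at 10 days.

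Over the whole course the mean of a Rab gene spanned between 0.09 for Rab23 and 1.32 for Rab3d, with a median span of 0.47. Of the 51 genes 17 were highest and 14 lowest at 10 days. An age change was found in Tg and in wt mice, each tested alone, for 38 genes (74.5%, against 66.1% of all genes). All 4 steps between neighbouring ages passed for 10 genes and none for 3. Passed steps and highest or lowest ages were not counted over all genes, so these counts only describe the Rab genes. At 9 over 4.5 months 7 Rab genes were higher (13.7%, against 20.6% of all genes) and 21 lower (41.2%, against 24.3%). At 14.5 over 9 months 22 were higher (43.1%, against 26.3%) and 12 lower (23.5%, against 21.9%). At 20 over 14.5 months 11 were higher (21.6%, against 18.3%) and 9 lower (17.6%, against 15.3%). The first and the second of these steps share the 9-month arrays, whose actin 3′ over 5′ ratio stood apart from every other age, and its part in the counts was not tested.

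For several Rabs the 9-month mice lay below the mice of both neighbouring ages. Rab10 had 10.82, 11.24 and 11.54 at 9 months, against 11.88, 12.01 and 12.18 at 4.5 months, and 11.61, 11.83 and 11.95 at 14.5 months. Its steps were -0.79 ± 0.069 and 0.57 ± 0.069. Rab11b had 11.64, 11.74 and 11.79 at 9 months (steps -0.68 ± 0.038 and 0.49 ± 0.038) and Rab6a 13.25, 13.36 and 13.40 (steps -0.54 ± 0.045 and 0.46 ± 0.045). In all 3 genes every 9-month mouse lay below every 4.5-month and every 14.5-month mouse. The opposite course was seen for Rab33b, with 10.59, 10.72 and 10.80 at 9 months, against 10.08, 10.18 and 10.52 at 4.5 months, and 10.12, 10.23 and 10.28 at 14.5 months (steps 0.45 ± 0.058 and -0.49 ± 0.058). Rab7 took that course too (steps 0.39 ± 0.037 and -0.24 ± 0.037), as did Rab18 (0.43 ± 0.056 and -0.25 ± 0.056).

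For 8 genes probe sets of the same gene were called in opposite directions, and for others, such as Rab1a, Rab23 and Rab27b, a second probe set was called where the one shown was not. Of 33 Rab genes with at least 2 tested probe sets, 5 held probe sets called in opposite directions at 4.5 months over 10 days and 4 at 20 over 4.5 months, with Rab14 in both. How often this occurs over all genes was not counted. Rab14 has 7 tested probe sets, whose changes at 4.5 months over 10 days ran from -0.16 to 0.84, and the brightest was the lowest of them. Rab2a has 6, whose changes at 20 over 4.5 months ran from -1.50 to 0.33. Which stretch of the transcript each probe set reads was not examined here. For these genes a change describes a probe set, not the sum of the transcripts of the gene.

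**Figure D4:**
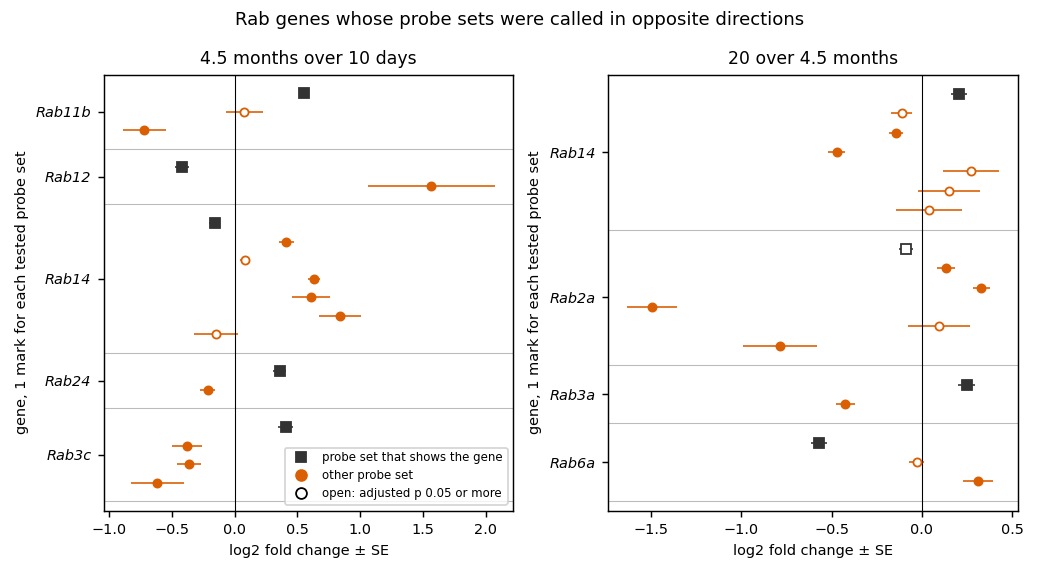
Log2 fold change with its standard error (x axis) of each tested probe set of the Rab genes (rows) whose probe sets were called in opposite directions, at 4.5 months over 10 days on the left and at 20 over 4.5 months on the right; squares are the probe sets that show the gene, and open symbols did not pass an adjusted p of 0.05. Marks of a gene lie on both sides of 0, from -0.72 to 0.55 for Rab11b on the left and from -0.57 to 0.31 for Rab6a on the right.

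Few Rab genes passed the test between Tg and wt hippocampus. In simulated data the 9-month comparison recovered 19% of planted 1.3-fold and 60% of planted 2-fold differences at an adjusted p under 0.05. The differences were planted in probe sets drawn at random from all 26877 tested. The shares are therefore not those of the Rab genes, whose spread can be smaller, and recovery at the methods' thresholds was not simulated. A gene that did not pass can still differ. With the thresholds of the study's methods (adjusted p up to 0.01, fold of 1.3 or more), 0 of 51 genes passed at 10 days (0% of all genes), at 4.5 months (0%), at 14.5 months (0%) and at 20 months (0.0311%), by limma. Unadjusted p-values under 0.05 were found for 4 Rab genes at 10 days (7.84%, against 5.65% of all genes) and 1 at 4.5 months (1.96%, against 6.73%). They were found for 11 at 9 months (21.6%, against 18.1%), 0 at 14.5 months (against 0.942%) and 4 at 20 months (7.84%, against 4.84%). At 9 months 1 gene passed the methods' thresholds (1.96%, against 0.693% of all genes), Rab27b, which acts in the exocytosis of secretory and synaptic vesicles. Rab27b had 9.98, 10.04 and 9.80 in the Tg mice, against 10.36, 10.29 and 10.31 in the wt mice. The groups did not overlap, and the difference was -0.38 ± 0.077 (adjusted p = 0.00577), a fold just past 1.3. Of its other probe sets 1 gave -0.83 ± 0.18 (adjusted p = 0.00912), and the remaining 2 gave 0.11 ± 0.29 and -0.27 ± 0.26. The call ended under 7 of the other settings, through the fold or through p. In a fit of the 9-month arrays alone, the difference was the same and the adjusted p 0.291. Without 1 mouse the adjusted p ran from 0.00404 to 0.0438. It was above 0.01 without Tg replicate 3 (0.0438), wt replicate 1 (0.0167), wt replicate 2 (0.0156) or wt replicate 3 (0.0107) of 9 months.

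At an adjusted p under 0.05 and no fold minimum, 3 Rab genes differed at 9 months (5.88%, against 2.99% of all genes), all lower in Tg. Besides Rab27b these were Rab4a and Rab3b. Rab4a had 10.39, 10.41 and 10.37 in Tg mice, against 10.68, 10.86 and 10.70 in wt mice (-0.36 ± 0.094, adjusted p = 0.0345), with no overlap. Rab3b had 9.31, 9.95 and 9.66 in Tg mice, against 10.44, 10.41 and 9.87 in wt mice (-0.60 ± 0.171, adjusted p = 0.0477), and the groups overlapped. The call of Rab3b was lost in 20 of 31 fits without 1 mouse and that of Rab4a in 3 (Tg replicate 1, Tg replicate 3 or wt replicate 2 of 9 months). Leaving out a mouse of another age cannot move these differences. Rab4a also did not pass without a filter (adjusted p = 0.0507), with a block by pairs (0.0826) or with the 9-month arrays alone (0.270). Rab3b did not pass under these settings either (0.0582, 0.0501 and 0.320). It was also lost without quantile normalization (0.0703), without trend and robust options (0.0735) and with a block by number (0.0632). Among the cell type markers Prox1, a transcription factor of dentate granule cells, was the only one to pass at 9 months, with 0.77 in Tg over wt (adjusted p = 0.0494), and its part in these differences was not tested. The actin 3′ over 5′ ratio at 9 months was 0.71 to 0.76 in Tg and 0.77 to 0.96 in wt mice. Summed neuron markers were 71857 to 77101 in Tg and 70198 to 71042 in wt mice. Summed microglia markers were 13177 to 13587 in Tg and 13948 to 14854 in wt mice. The sums of the other cell types overlapped between the genotypes. The part of array quality and cell mix in the Rab differences was not tested. At the other ages the differences were 0.07, -0.05, -0.10 and -0.12 for Rab27b, 0.35, -0.28, 0.00 and -0.26 for Rab3b, and 0.10, 0.05, -0.07 and 0.20 for Rab4a, in order of age, none past the test. At 9 months the summed choroid plexus markers were 4697 to 48708 in Tg mice, against 38990 to 42545 in wt mice. With their mean as a term of the model the difference of Rab27b was -0.377 (adjusted p = 0.00843). Its fold then fell just short of the minimum of the methods' thresholds, so the call was lost. Rab3b gave -0.54 with this term and did not pass either (adjusted p = 0.0653), while Rab4a gave -0.35 (adjusted p = 0.0461). Of 51 Rab genes 0 had a called slope on these markers, against 1.92% of all genes. At so low a share 51 genes are too few for this count to tell the Rab genes from all genes.

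**Figure D5:**
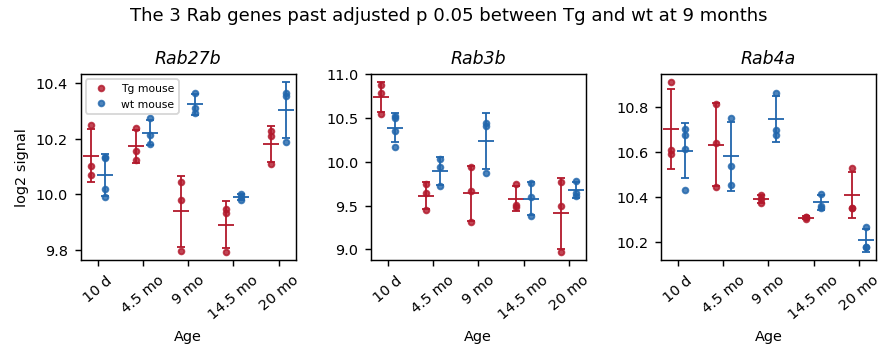
Log2 signal (y axis) of Rab27b, Rab3b and Rab4a in each mouse at 5 ages (x axis), with Tg mice in red left of wt mice in blue and the mean and SD of each group. At 9 months the Tg mice lie below the wt mice for Rab27b and Rab4a, while those of Rab3b overlap.

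Over the 5 ages 0 Rab genes differed between Tg and wt by the F-test (0.195% of all genes), with a lowest adjusted p of 0.120 for Rab27b and 7 of 51 genes at an unadjusted p under 0.05, beside 9.28% of all genes. On average over the ages 0 differed (0.0156% of all genes), the lowest adjusted p being 0.361 for Rab27b (-0.12 ± 0.034). An age change that differed between the genotypes was found for 0 (0.0623% of all genes). The lowest adjusted p of that test was 0.246 for Rab4a, and 8 of 51 Rab genes had an unadjusted p under 0.05, beside 8.38% of all genes. Without wt replicate 3 of 9 months Rab5b passed it (adjusted p = 0.0478) and also the 9-month comparison (0.94, adjusted p = 0.00815). With all mice Rab5b had 9.09, 9.12 and 8.47 in Tg mice, against 8.19, 7.71 and 8.84 in wt mice at 9 months (0.65 ± 0.208, adjusted p = 0.0781). The difference of Rab32 at 9 months was larger in size and did not pass (-1.03 ± 0.450, adjusted p = 0.199).

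A second set of promoter stretches is shown because 3 early endosomal or autophagic Rabs carry the palindrome GTCACGTGAC, the core of the element bound by lysosomal transcription factors of the TFEB family. Capitals mark the palindrome, with 25 flanking bases on each side, in GRCm38.p6: chr10:115315589-115315648 (minus strand) for Rab21, chr13:55321946-55322005 (minus strand) for Rab24 and chr17:53479112-53479171 (plus strand) for Rab5a.
Rab21: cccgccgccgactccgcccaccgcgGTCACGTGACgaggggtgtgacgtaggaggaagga
Rab24: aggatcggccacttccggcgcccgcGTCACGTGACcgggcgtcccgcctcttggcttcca
Rab5a: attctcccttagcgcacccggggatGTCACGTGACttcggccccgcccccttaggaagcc
The motif starts 32 bases before the annotated start of Rab21, at the start of Rab24 and 97 bases before that of Rab5a. It stands in 3 of 48 Rab windows (6.25%) and in 0.37% of all genes of the table, and the shorter CACGTG inside it in 6 of 48 (12.5%, against 8.09%). Here too the table holds genes that were not tested in these data. All 3 genes were among the 17 of 51 Rab genes that rose at 4.5 months over 10 days (33.3%, against 31.2% of all genes). They rose by 0.17 for Rab21, 0.36 for Rab24 and 0.09 for Rab5a, with the limits given above for Rab24 and Rab5a. None of the 3 passed at 20 over 4.5 months with the probe set shown, while Rab24 rose with the median over probe sets (0.31, adjusted p = 1.52e-06). Of the other Rab genes with CACGTG, Rab27a rose at 4.5 months over 10 days, Rab23 did not pass and Rab20 was not tested. The direction of the other genes with the palindrome was not examined, so the count only describes these 3 genes. A match of letters is a description and was not tested for binding.

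Regulators of the Rab cycle were read from a list of 140 genes, 121 of which were tested. Of all genes 31.2% rose and 35.5% fell at 4.5 months over 10 days, and 22.4% rose and 19.9% fell at 20 over 4.5 months, and the counts of the lists are to be read beside these shares. At 4.5 months over 10 days 53 rose and 39 fell, with a median change of 0.05 (-0.04 over all genes), and at 20 over 4.5 months 27 rose and 39 fell, with a median change of -0.08 (0.03 over all genes). Among 47 tested effectors and kinases 25 rose and 11 fell at 4.5 months over 10 days, beside 31.2% and 35.5% of all genes, with a median of 0.24 beside -0.04 over all genes. Rph3a, the Rab3 effector rabphilin of synaptic vesicles, rose by 1.40 ± 0.050 (adjusted p = 4.43e-20) and at 20 over 4.5 months fell by 1.11 ± 0.052 (adjusted p = 2.53e-16). Rilpl1, which binds phosphorylated Rab8 and Rab10, rose by 1.55 ± 0.058 at 4.5 months over 10 days. Uso1, a Golgi tether and Rab1 effector, rose by 0.66 ± 0.051 at 20 over 4.5 months.

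The 32 tested exchange factors gave 14 rises and 10 falls at 4.5 months over 10 days (of all genes 31.2% rose and 35.5% fell). Rin1, a Rab5 exchange factor of forebrain neurons, rose by 2.69 ± 0.084 (adjusted p = 2.15e-21), more than any Rab gene. Rabif fell by 0.75 ± 0.062. At 20 over 4.5 months 8 rose and 11 fell (of all genes 22.4% rose and 19.9% fell), with Dennd5b up by 0.38 ± 0.051 and Sbf1, an exchange factor of Rab28, down at -0.73 ± 0.054. Of 34 tested GAPs, beside the same shares of all genes, 13 rose and 12 fell at 4.5 months over 10 days, among them Tbc1d16 (-1.27 ± 0.059) and Tbc1d12 (-0.78 ± 0.065). At 20 over 4.5 months 5 GAPs rose and 12 fell, and Tbc1d30, a GAP of Rab8, fell by 1.50 ± 0.084 (adjusted p = 1.24e-14). Tbc1d30 was the only regulator past the methods' thresholds between Tg and wt at 9 months, where it was lower in Tg (-0.82 ± 0.119, adjusted p = 0.000531). Rims4, a member of the RIM family in the list of effectors and kinases, was lower at an adjusted p under 0.05 (-0.62 ± 0.166, adjusted p = 0.0373). Whether its product binds a Rab was not examined here.

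The 8 tested genes of GDIs, escort proteins and prenylation gave 1 rise and 6 falls at 4.5 months over 10 days, with a median of -0.28 (of all genes 31.2% rose and 35.5% fell, median -0.04), and 4 rises and 1 fall at 20 over 4.5 months, with a median of 0.19 (of all genes 22.4% rose and 19.9% fell, median 0.03). With 8 genes these counts only describe the list. Gdi2, which extracts Rabs from membranes, fell by 0.36 ± 0.042 and rose by 0.18 ± 0.044 in these comparisons. Rabac1, a Rab acceptor of the Golgi, fell by 0.54 ± 0.056 and rose by 0.57 ± 0.058. Rabggtb, a subunit of the enzyme that prenylates Rabs, fell by 0.30 ± 0.072 and rose by 0.46 ± 0.075. The exception was Yipf2, a Golgi membrane protein, which rose by 1.62 ± 0.121 and fell by 0.72 ± 0.125. Both comparisons share the 4.5-month arrays.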

How the data were processed

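The authors hybridized hippocampal RNA to Affymetrix arrays and deposited signal intensity values that, per the labels, came from MAS5 (version not given in the sources used here). The values are linear, none is at or below 0, and the depth of an array is not a count, so that the number of mice limits the precision. The study's methods describe RMA values from image files, which were not used here, and 3 wt mice at 10 days where the labels give 4. All 4 were used. After 64 control probe sets were set aside, log2 intensity was quantile normalized across the 31 arrays. A probe set entered the test with a signal over the array median in 3 or more mice (26877 of 45037). Limma 3.58.1 in R 4.3.3 fitted a mean for each of 10 groups (eBayes with trend and robust options). Benjamini-Hochberg adjustment covered all probe sets tested. Genes were called at an adjusted p under 0.05, and in Tg mice against wt mice of the same age with a fold of 1.3 or more and an adjusted p up to 0.01. P-values measure the spread between mice, with 1 array for each. Age comparisons are the mean of the Tg and wt contrasts.

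Of the mouse probe sets 34945 are annotated to a single gene, 932 to several and 9160 to none; only the first kind was given a gene name. Shares of all genes called are over 12844 genes, each shown by its brightest tested probe set. The scripts were tested on simulated data. Genes were named by a rule: the 6 largest called rises and falls of each age comparison, genes called between genotypes, 24 genes chosen for their role, genes with opposed probe sets and, of the regulators, the 3 smallest p in each direction and those called between genotypes. The other Rab genes, and Gdi2, Rabggtb and Yipf2, were named to complete a role, after their values were seen. Members, roles and lists were chosen with earlier results of these data known. Alternatives were the deposited scale (no quantile step), 50 added to each signal, all probe sets tested, only probe sets whose mean exceeded the 60th percentile, moderation without trend and robust options, the median over probe sets, replicate blocks, fits of the ages compared alone, other thresholds, leaving out each mouse, and, added after seeing the data, a choroid plexus term and counting the symbols that are no GTPases. Promoters came from RefSeq (GRCm38.p6).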

Additional observations from a re-analysis of the deposited data

Results flagged for a closer look

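Of 36 named Rab genes 3 had a wt mouse at 10 days that stood apart from the other 3, the only group with 4 mice; the gap of the outermost mouse to its neighbour took more of the range of the group than the critical value of Dixon's test. Chance flags about 1 in 20 groups. For Rab26 replicate 2 was low, with a log2 signal of 7.88 against 8.46, 8.48 and 8.56, and the gap took 0.850 of the range. For Rab28 replicate 3 was low, with 10.37 against 10.56, 10.57 and 10.58 (0.925 of the range). For Rab39b replicate 4 was high, with 10.67 against 10.24, 10.29 and 10.31 (0.835 of the range). The mice differ between the 3 genes. The rises of Rab26 and Rab28 at 4.5 months over 10 days kept their direction and their call without any single mouse.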

How the results depend on the processing

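The comparison of Tg with wt at 9 months, with 1 Rab gene called, gave 0 with deposited values without quantile normalization, with an offset of 50, without a filter, with a median over probe sets, with a replicate block by pairs of an age, with only the arrays of that age and with a choroid plexus term, and 3 at an adjusted p under 0.05 with no fold minimum. It gave 0 to 1 without each mouse in turn, as did the test of an age change that differs between the genotypes. With an adjusted p up to 0.01 and a fold of 1.3 or more, 11 genes rose and 10 fell at 4.5 months over 10 days, 4 rose and 5 fell at 20 over 4.5 months, and 10, 9 and 6 changed at the 3 later steps. These are fewer because the threshold is stricter. The counts at 4.5 months over 10 days were 15 to 18 rises and 15 to 19 falls without 1 mouse, and those at 20 over 4.5 months 11 to 13 and 10 to 12. Of 75 log2 fold changes of 36 named Rab genes, 630 of 678 values under other settings and 2262 of 2325 without 1 mouse kept their side of the threshold, and their direction where called. The settings differed: with the median over probe sets only 53 of 75 values did so, while 10 were reversed, 7 lost their call and 5 gained one. Most fits without 1 mouse left out a mouse outside the groups compared, which cannot move the fold change. Without quantile normalization, which moves the median of all probe sets at 4.5 months over 10 days to 0.14, against 0.01 with it, Rab5a gave -0.048 and Rab6b -0.12. With the median over probe sets Rab12 gave 0.58, Rab14 0.63, Rab27b -0.40, Rab3a 0.25 and Rab3c -0.37 at 4.5 months over 10 days, and Rab14 -0.47, Rab1a 0.20, Rab3a -0.089, Rab3c 0.45 and Rab8a -0.018 at 20 over 4.5 months. These genes have probe sets that differ, and the cause was not tested. The replicate numbers did not pair the mice: over 15 pairs of Tg and wt mice the correlation of their deviations ran from -0.11 to 0.05. A block by number kept 1 call at 9 months, and a block by pairs gave 0. The lack of detection calls limits what low signals can show.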
